A study of Mus musculus with 4 samples.

Results

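The genes described here are 38 that mark endothelial cells, the lining of blood vessels, or that carry the signals by which vessels sprout and are maintained. They were chosen by name and comprise 14 junction, surface and secreted markers, 4 transcription factors, 5 VEGF receptors and co-receptors, the 2 angiopoietin receptor family members, 6 secreted ligands, 5 Notch and ephrin genes and the 2 parts of the receptor for CGRP and adrenomedullin. All 38 were on the array, among 13181 named genes, with 64 of its 22626 probe sets (a probe set is the set of short DNA probes by which the array reads 1 transcript). The table's own symbol found 31 of them, and 7 stood under an older symbol and were found by gene ID. Mouse RNA was measured on 4 Affymetrix arrays. The forskolin array held primary adipocyte cultures from visceral fat given 10 µM forskolin for 2 h, which raises the messenger cAMP by activating adenylyl cyclase, and the vehicle array held such cultures given DMSO. The high fat array held fat pads from the epididymis of mice kept for 12 weeks on a diet labelled 60% high fat, and the chow array the same depot of chow-fed control mice. The file headers call both fat samples WT, and strain, age and the number of mice or cultures behind each RNA were not given in the sources used here. Each group had 1 array, so no difference has a replicate check and no test was possible; their small number is what limits precision.

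VEGF-A, secreted by adipocytes and many other cells, acts on endothelial cells through the receptor Kdr (VEGFR2), while Flt1 (VEGFR1) binds the same ligand and restrains it, and the neuropilins are co-receptors. Angiopoietin-1 steadies vessels through the receptor Tek (Tie2), angiopoietin-2 modulates that signal, and Notch and ephrin pairs separate arterial from venous and sprouting from stable cells. Fat is densely vascularised, and its capillaries deliver the lipid that adipocytes store.

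Among the listed genes at or above the median gene, the ligand Vegfa had the largest difference in both experiments by the probe set used here. It was 3.87-fold higher with forskolin in adipocyte cultures in which most endothelial markers lay below the median gene. In fat from the high fat diet it was 5.29-fold lower by the same probe set and 1.37-fold lower by the other. Endothelial genes of that fat were mixed. The receptors Flt1 and Flt4 and Sox17, Notch4, Nos3 and Ptprb were at least 2-fold lower by the probe set used here. Every other probe set of Flt1, Flt4 and Notch4 fell short of 2-fold, and that of Flt4 was 1.05-fold higher. Pecam1, Tie1, Calcrl, Nrp1 and Cd93 were higher by 1.25-fold to 1.65-fold. Nrp2 was 2.13-fold higher by the probe set used here and 2.07-fold lower by its other. At 1.5-fold, 18 of the 37 measured genes of the list were lower (17.1% of all genes) and 3 higher (22.2%). Levels are the deposited intensities, on a linear scale, of the probe set with the highest mean level of each gene. Differences are log2 intensity in the first-named sample minus the second, and values under the 10th percentile of an array were raised to it (the floor, 22.2 on the forskolin, 22.1 on the vehicle, 26.0 on the high fat and 25.1 on the chow array). An intensity cannot be compared between probe sets, so only differences are set side by side between genes.

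The authors' deposited table sorts genes by whether a CRE was predicted near them, with or without a TATA box. A CRE is the DNA site of the factor CREB, which acts when cAMP rises. Among the 38 genes, 6 were classed CRE_TATA (Cdh5, Cldn5, Egfl7, Flt1, Dll4 and Ramp2), Vegfa was the 1 classed CRE_NoTATA, and 31 were classed others. Forskolin gave at least 2-fold more intensity in 1 of the CRE_NoTATA class and in 0 of the 6 CRE_TATA genes, against 1.83% and 4.65% of all measured genes of these classes in the authors' deposited table. Of the 6, Egfl7 and Ramp2 alone reached the median level of all genes in the cultures. The 250 bases before the start site are shown for Vegfa, the ligand that was higher with forskolin, for Vegfb, a ligand of the same family that was not, and for Flt1, a receptor classed CRE_TATA. They are RefSeq sequences on build GRCm38.p6, read 5′ to 3′ on the gene's strand. Capitals mark the CRE letters TGACG (either strand) and the letters TATAAA (either strand).
Vegfa: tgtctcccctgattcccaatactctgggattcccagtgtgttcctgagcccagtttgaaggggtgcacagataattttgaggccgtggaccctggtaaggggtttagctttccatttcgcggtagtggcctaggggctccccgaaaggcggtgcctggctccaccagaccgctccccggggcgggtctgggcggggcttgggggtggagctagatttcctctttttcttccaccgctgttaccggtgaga
Vegfb: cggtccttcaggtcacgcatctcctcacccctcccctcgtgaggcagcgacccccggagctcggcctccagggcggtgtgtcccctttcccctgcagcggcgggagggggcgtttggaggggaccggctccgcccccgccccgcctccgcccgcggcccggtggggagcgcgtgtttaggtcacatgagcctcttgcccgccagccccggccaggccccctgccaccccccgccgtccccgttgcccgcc
Flt1: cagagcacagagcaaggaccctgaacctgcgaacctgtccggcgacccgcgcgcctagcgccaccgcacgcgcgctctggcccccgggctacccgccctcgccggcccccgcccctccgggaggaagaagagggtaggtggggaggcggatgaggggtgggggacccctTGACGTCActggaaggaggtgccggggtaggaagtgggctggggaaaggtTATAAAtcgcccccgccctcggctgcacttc

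These windows lie at chr17:46032378-46032627 (minus strand) for Vegfa, chr19:6987652-6987901 (minus strand) for Vegfb and chr5:147726012-147726261 (minus strand) for Flt1. The Flt1 window held the whole CRE letters TGACGTCA, beginning 81 bases before the start site, and TATAAA beginning 31 bases before it. The windows of Vegfa and Vegfb held neither. A second annotated start of Vegfa, downstream of the first, had a window (chr17:46025164-46025413) with TGACG on the other strand 209 bases before the start. Of 23 of the 38 genes with a promoter entry (28 windows), the whole CRE letters were found in 1 window, TGACG (which the whole site contains) in 4 and TATAAA in 3. Over all 32851 windows of this length the shares were 1.55%, 17.8% and 12.4%. A match is a description of letters and not of a bound site, and no match speaks only of these 250 bases.

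With forskolin in the adipocyte cultures, Vegfa was the only gene at least 2-fold higher. Erg, at a level below the median gene, was the only one at least 2-fold lower. Of all 38 genes, 1 was at least 2-fold higher, 2.63% against 1.94% of all measured genes, and 1 was at least 2-fold lower, 2.63% against 1.08%. These shares rest on 1 gene each. At 1.5-fold, 2 were higher (5.79% of all genes) and 3 lower (4.24%), and 33 lay within it, 86.8% of the genes here against 90.0% of all. Their median difference was -0.02, and that of all genes 0.00. Only 11 of the 38 reached the level filter (a level at or above the median gene on whichever of the 2 arrays is brighter), so most of the differences compare low signals. Among those 11, 1 was at least 2-fold higher, against 1.22% of all genes at that filter, and 0 lower, against 0.134%.

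Among the 6 ligands, Vegfa alone differed by 1.5-fold or more with forskolin, and the role's median was -0.05. Vegfa had an intensity of 1411 with forskolin, against 365 with vehicle, a difference of 1.95 on the log2 scale. Its second probe set read 2003 with forskolin and 785 with vehicle, 2.55-fold higher, so both probe sets gave the same direction. The fold has bounds of 3.16 and 4.74 for the first and 2.26 and 2.88 for the second in the authors' deposited table, which give no confidence level and cannot hold the variation between cultures. Vegfb, a ligand of Flt1 linked to lipid uptake by endothelium, had 929 with forskolin and 1030.0 with vehicle. Apln, the ligand apelin, had 301 with forskolin and 358 with vehicle, and Angpt1 had 186 and 198, so both lay within 1.5-fold. Angpt2 was 1.36-fold higher (163 with forskolin, 119.5 with vehicle), and Vegfc, the main ligand of the lymphatic receptor Flt4, was at 43.1 with forskolin and 43.5 with vehicle. The difference of Vegfa was 1.91 above the median of the 3 endothelial markers that reached the level filter (Egfl7, Eng and Nos3).

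Endothelial markers were low in the cultures, and most lay within 1.5-fold between the arrays. Pecam1, the adhesion molecule CD31, had an intensity of 12.2 with forskolin and 13.5 with vehicle, and Vwf, the clotting carrier of endothelial granules, had 13.6 and 14.7. Both lay under the floor on both arrays, as did Icam2 and Tie1, so no fold is given for these 4. Plvap, the diaphragm protein of fenestrae, was under the floor with vehicle (21.4) and at 31.7 with forskolin. Cdh5, the junction protein VE-cadherin, was at 57.5 with forskolin and 48.9 with vehicle, and Kdr at 119.6 and 121. Cldn5, the tight junction claudin, was 1.53-fold higher with forskolin (180.1 against 118), below the level filter. Erg, an ETS factor of endothelial identity, was at least 3.84-fold lower, with forskolin under the floor (6.82) and vehicle at 85.4. Its vehicle level also lay below the filter, and it had 1 probe set. Flt1 was 1.58-fold lower (70.2 with forskolin, 111 with vehicle) and Robo4 1.70-fold lower (32.1 and 54.6), both below the filter. The remaining endothelial genes, among them Tek (88.3 and 85.1), Sox18 (137 and 124), Emcn (83.6 and 122) and Calcrl (41.6 and 52.3), lay within 1.5-fold.

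The 8 genes other than ligands that reached the level filter were close between the arrays. Ets1, a transcription factor found in many cell types, had 1452 with forskolin and 1427 with vehicle. Nrp2, a co-receptor for VEGF and semaphorins, had 1015 and 1077, Nrp1 had 672 and 601, and Notch1 had 602 and 550.0. Eng, the TGF-beta co-receptor endoglin, had 481 and 469, Nos3, the endothelial nitric oxide synthase, 571 and 586, Egfl7 349 and 331, and Ramp2 479 and 509. None of these 8 differed by more than 1.12-fold.

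**Figure D1:**
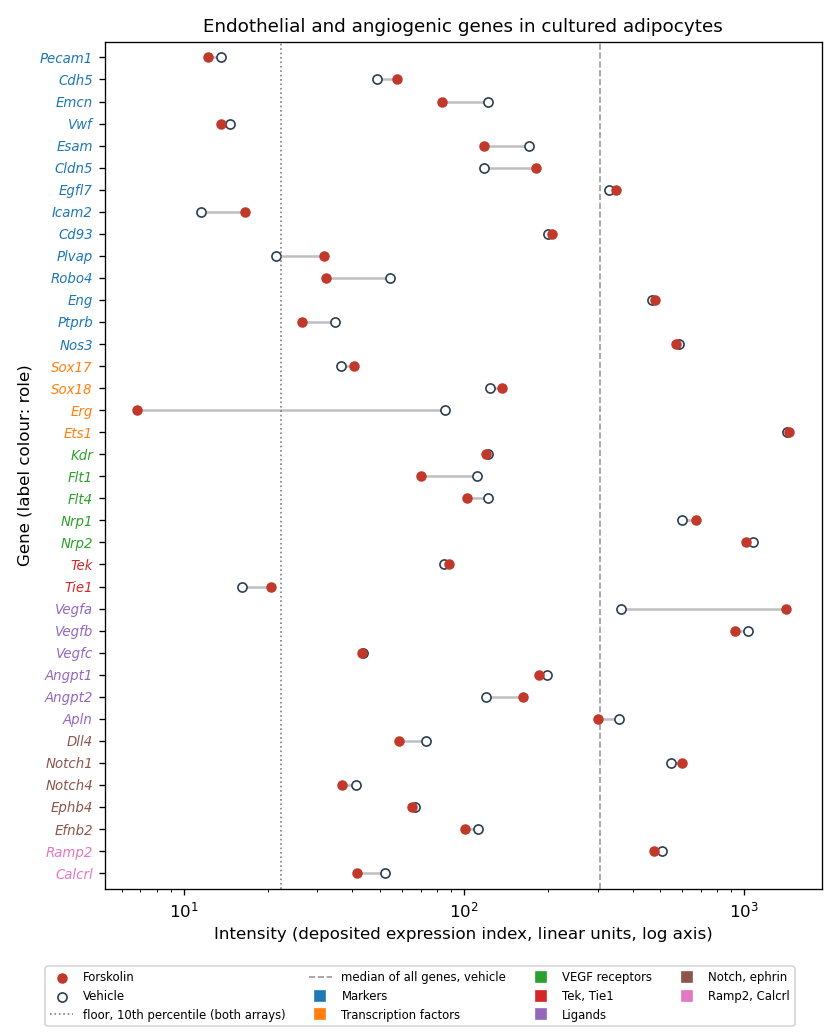
Intensity (log axis) of each gene in cultured adipocytes, filled for forskolin and open for vehicle, 1 array each, with gene labels coloured by role. Most endothelial genes lie left of the vehicle array's median of all genes (306, dashed), several under the floor (dotted), and Vegfa is the gene with the widest gap above the floor (1411 with forskolin, 365 with vehicle).

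The vehicle cultures were also set beside chow fat. The fat and the cultures differ in preparation, experiment and array at once, so these cannot be told apart. Of 37 genes measured on both arrays, 30 were at least 2-fold lower in vehicle cultures, against 17.1% of all genes, and 1 was at least 2-fold higher (Nrp2), against 12.3%. The median difference was -2.56, beside -0.13 for all genes. All 13 measured endothelial markers were at least 2-fold lower, from Cdh5 (48.9 in vehicle cultures, 3661 in chow fat, 74.9-fold) to Nos3 (586 in vehicle cultures, 1277 in chow fat, 2.18-fold). Pecam1 was at least 36.7-fold lower and Vwf at least 59.3-fold lower, with the cultures under the floor. Sox17, an arterial transcription factor, was 58.2-fold lower (36.4 in vehicle cultures, 2114 in chow fat), and Kdr 20.9-fold lower (121 and 2541).

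The 7 measured genes less than 2-fold lower in vehicle cultures were 4 ligands, Ets1, Erg and Nrp2. Vegfb (1030.0 in vehicle cultures, 880.2 in chow fat), Apln (358 and 311) and Angpt1 (198 and 252) lay within 1.5-fold, and Angpt2 was 1.97-fold lower. The lymphatic growth factor Vegfc was 4.79-fold lower (43.5 and 208). Vegfa was 5.74-fold lower in vehicle cultures by its main probe set (365 and 2094) and 1.76-fold higher by the other (785 and 446), so its direction depended on the probe set. For Ets1 the direction also varied between probe sets. The one used here gave 1427 in vehicle cultures and 1694 in chow fat, 1.19-fold lower. Of the others, 1 read 11.1-fold higher (799 and 71.8), 1 read 1.12-fold higher (1483 and 1324) and 1 had no vehicle value. Erg was 1.35-fold higher and Nrp2 2.08-fold higher (1077 in vehicle cultures, 518 in chow fat), the last by 1 of its 2 probe sets. Others that reached the filter in culture were lower, with Egfl7 5.05-fold, Nrp1 4.39-fold, Eng 4.27-fold and Notch1 2.24-fold. Ramp2 was 5.91-fold lower by the brightest probe set and between 2.05-fold and 3.40-fold higher by the other 3. The 5 adipocyte markers on the array (of 6 listed) summed to 33435 in vehicle cultures and 44943 in chow fat, with none under the floor. Gene by gene, 5 of 5 were lower in vehicle cultures, with a median difference of -0.25. Pparg (4.70-fold) and Cidec (2.94-fold) were at least 2-fold lower. The 10 markers listed as defining for endothelium summed to 1041 in vehicle cultures, 3 of them under the floor and none at 0, and to 16786 in chow fat. Sums over lists for other cells of whole fat differed in direction, and the brightest markers lead such sums. The 5 fibroblast and preadipocyte markers summed to 1869 in vehicle cultures and 15389 in chow fat, the 7 macrophage markers to 4199 and 12358, and the 4 mesothelial markers to 164 and 2139.9. The 7 smooth muscle and pericyte markers summed to 9897 in vehicle cultures and 8937 in chow fat. Gene by gene, 5 of these 7 were lower in vehicle cultures, with a median difference of -0.24. The 3 lymphatic markers summed to 3451 and 2047. Of these, Pdpn alone had 3372 in vehicle cultures and 1014 in chow fat, while Lyve1 was 13.3-fold lower (76.9 and 1022).

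On the high fat diet the list was lower at its middle, with members on both sides. Of 37 genes measured on both fat arrays, 8 were at least 2-fold lower, 21.6% of the genes here against 7.42% of all measured genes. The 1 at least 2-fold higher was Nrp2, 2.70% here against 12.1% of all. At 1.5-fold, 18 were lower (17.1% of all genes) and 3 higher (22.2% of all genes). The median difference was -0.54, beside 0.05 over all genes, and 27 of 37 were below 0, or 73.0%, against 44.1% of all genes. Fewer endothelial cells and less RNA per endothelial cell cannot be told apart in such whole tissue. Robo4, a guidance receptor that stabilises vessels, had no value on the chow array and 619 on the high fat array and is left out of these counts.

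The split of calls depended on scaling. Centring each array on its median moved the median difference of all genes to -0.16 and gave 13 genes lower, against 11.5% of all genes, and 0 higher, against 9.22%. Quantile normalization moved it to -0.11 and gave 16 lower, against 11.8%, and 0 higher, against 9.55%. The 8 genes lower as deposited were among both sets. Under both scalings Pecam1, Tie1, Cd93, Nrp1, Nrp2, Angpt2 and Calcrl stayed above 0, while Egfl7 and Icam2 fell below 0 in both and Cldn5 under quantile normalization.

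VEGF receptors held some of the larger differences. Flt1 had 333 on the high fat diet, against 857 on chow, 2.58-fold lower, and its other 2 probe sets were 1.71-fold and 1.43-fold lower. Kdr, the main signalling receptor, had 1401 on the high fat diet, against 2541 on chow, 1.81-fold lower by its 1 probe set. Flt4, the receptor of lymphatic and some capillary endothelium, had 217 on the high fat diet, against 434 on chow, 2.00-fold lower, whereas a dimmer probe set was 1.05-fold higher. The co-receptors went the other way. Nrp1 had 4163 on the high fat diet, against 2638 on chow, 1.58-fold higher, and its other probe sets were 1.30-fold and 1.09-fold higher. Nrp2 was 2.13-fold higher (1103 and 518) by its main probe set and 2.07-fold lower (78.9 and 163) by the other.

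Transcription factors of the endothelium were lower or level. Sox17 had 603 on the high fat diet, against 2114 on chow, a difference of -1.81, and its second probe set (383 and 863) was 2.25-fold lower. Sox18, a relative of Sox17 that acts in lymphatic and vascular development, had 1071 on the high fat diet, against 1558 on chow, 1.45-fold lower. Erg was 2.05-fold lower at a level below the filter (30.8 and 63.1). Ets1 had 1667 on the high fat diet, against 1694 on chow by its main probe set, while 2 probe sets dim in fat were 2.86-fold and 2.01-fold higher.

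The markers were divided, with 6 of the 13 measured lower by 1.5-fold or more and 1 higher. Ptprb, the phosphatase VE-PTP that acts on VE-cadherin and Tek, had 609 on the high fat diet, against 1341 on chow, 2.20-fold lower, and Nos3 had 621 and 1277, 2.06-fold lower. Cdh5 (2163 and 3661), Emcn, a sialomucin of capillaries and veins (395 and 718), Vwf (829.5 and 1310), and Esam, a tight junction protein (1366 and 2208), were 1.58-fold to 1.82-fold lower. A dimmer probe set of Cdh5 read 344 on the high fat diet, against 76.8 on chow, the opposite direction. Plvap (1179 on the high fat diet, 1425 on chow) and Eng (1972 and 2003) lay within 1.5-fold, although the second probe set of Eng was 2.16-fold lower.

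Other markers were higher on the high fat diet or level. Cd93, a C-type lectin-like receptor, had 3484 on the high fat diet, against 2109 on chow, 1.65-fold higher. Pecam1 had 1013 on the high fat diet, against 810.0 on chow, 1.25-fold higher, and Cldn5 had 2630 and 2199, 1.20-fold higher. Icam2, a ligand of leukocyte integrins, had 715 and 651, and Egfl7, a secreted matrix factor, had 1804 and 1668. As background, Pecam1, Cd93, Icam2 and the neuropilins are also made by leukocytes. The 7 macrophage markers listed summed to 43905 on the high fat diet, against 12358 on chow, 7 of 7 were higher, their median was 6.64-fold higher and none was at 0. The 4 mesothelial markers summed to 994 and 2140 (2139.9 on chow) with 4 of 4 lower, and the 5 adipocyte markers to 42810.0 and 44943. Of these 5 adipocyte markers, 3 were lower and 2 higher, and Pparg alone differed by 1.5-fold or more (1.83-fold lower). The 5 fibroblast and preadipocyte markers summed to 22402 and 15389, with 5 of 5 higher and a median 1.63-fold higher. The part of these cells in the differences was not tested.

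**Figure D2:**
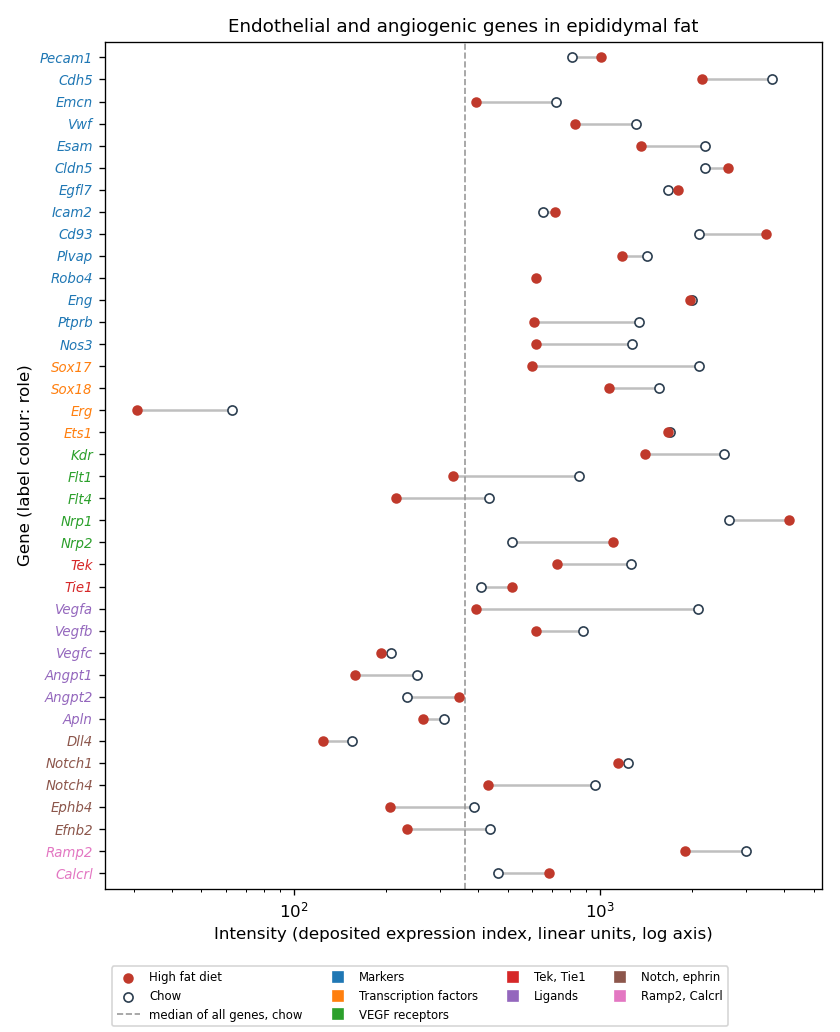
Intensity (log axis) of each gene in epididymal fat, filled for the high fat diet and open for chow, 1 array each, with gene labels coloured by role. Vegfa (396 on the high fat diet, 2094 on chow) and Sox17 (603 and 2114) have the widest gaps to the left, Nrp2 the widest to the right, and Robo4 has no chow value.

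The angiopoietin receptors were split. Tek had 723 on the high fat diet, against 1263 on chow, 1.75-fold lower, while Tie1, its orphan partner, had 518 and 408, 1.27-fold higher. Among Notch and ephrin genes all 5 were below 0, with a median of -0.91. Notch4, an endothelial Notch receptor, had 433 on the high fat diet, against 963 on chow, 2.23-fold lower, and its other probe set was 1.62-fold lower. Ephb4, the venous ephrin receptor, had 207 and 389.6, 1.89-fold lower, and its arterial ligand Efnb2 had 234 and 439.5, 1.88-fold lower by the main probe set and 1.52-fold higher, as a lower bound, by 1 of the other 3. Notch1 was 1.07-fold lower, and Dll4, the Notch ligand of sprouting tip cells, was 1.24-fold lower by 1 probe set and 1.86-fold higher by the other, both below the level filter. In the receptor for CGRP and adrenomedullin, Calcrl had 681 on the high fat diet, against 463 on chow, 1.47-fold higher. Its partner Ramp2 had 1899 and 3011 by its main probe set, 1.59-fold lower, but was 2.60-fold, 3.73-fold and 2.79-fold higher by the other 3, so no direction is given for it.

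Ligands in fat were led by Vegfa. Its main probe set had 396 on the high fat diet, against 2094 on chow, a difference of -2.40, and the second had 325 and 446, 1.37-fold lower. Signed folds in the authors' deposited table were -5.29 for the first, with bounds of -4.37 and -6.63, and -1.37 for the second, with bounds of -0.84 and -2.39 that lie on both sides of no change. Of the 9 genes at least 2-fold apart on the high fat diet, 9 had both bounds on 1 side of no change in the authors' deposited table, as did 30 of all 37 measured. These 9 were picked by their fold on the same arrays, so their bounds add no separate support. The share over all genes was not counted. Such bounds come from 1 array per diet and cannot hold the variation between mice. Vegfb had 618 on the high fat diet, against 880.2 on chow, 1.42-fold lower. Angpt1 was 1.59-fold lower (159 and 252) and Angpt2 1.48-fold higher (348 and 235), both below the level filter. Vegfc (193 and 208) and Apln (264 and 311) lay within 1.5-fold, below the filter too.

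Set against the endothelial markers, Vegfa was the more displaced in fat as in culture. Its difference was 2.13 below the median of the 13 measured markers, which was -0.27. With the median over the probe sets of each gene, this gap was 1.16 in the same direction. The ligands as a role had a median of -0.37, less far from 0 than the VEGF receptors (-0.86) or the Notch and ephrin genes (-0.91). Of the 6 ligands, 4 lay within 1.5-fold, 66.7% against 60.7% of all genes. Only 2 of the 6 reached the level filter, and the median of these 2 was -1.46. The 2 comparisons have no sample in common. Vegfa was the 1 gene of the list at least 2-fold higher with forskolin, and by its main probe set it had the largest difference of the list on the high fat diet. The high chow value of that probe set (2094, against 446 for the other) made it the brighter by mean level. In culture the other was brighter (2003 against 1411 with forskolin, 785 against 365 with vehicle). The chow value thus entered both the choice and the difference. With the median over probe sets, Sox17 (-1.49) was the lowest on the high fat diet and Vegfa (-1.43) came next.

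**Figure D3:**
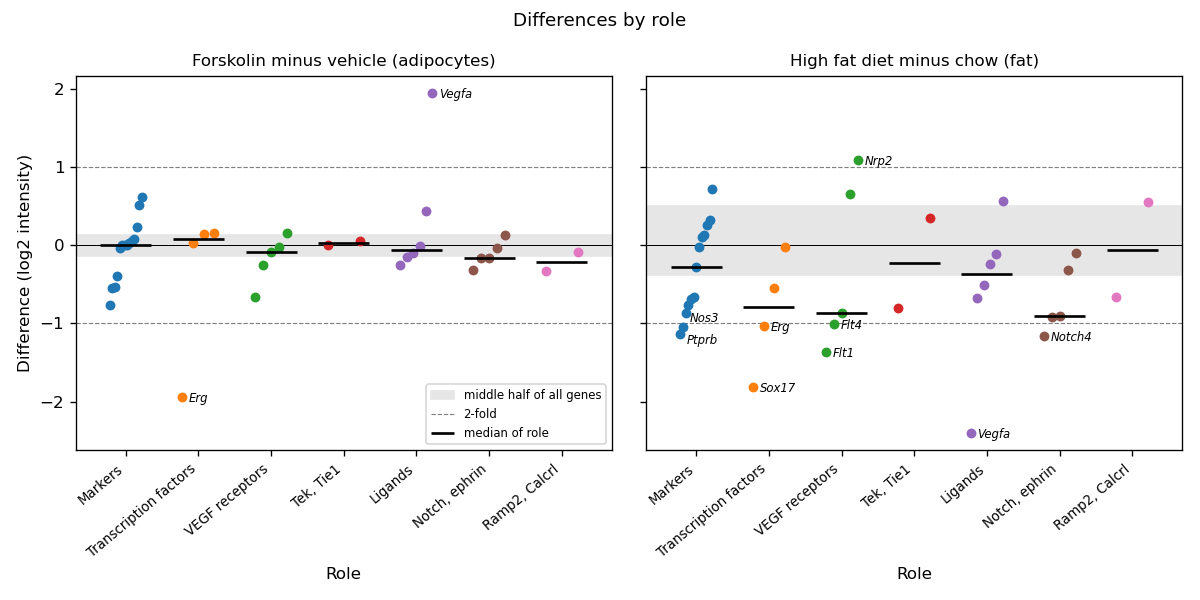
Difference in log2 intensity of each gene (points) by role, for forskolin minus vehicle on the left and high fat diet minus chow on the right. Black bars are role medians, the grey band runs from the first to the third quartile of all genes, dashed lines are 2-fold and genes past them are named. Vegfa is at 1.95 on the left and -2.40 on the right, and Erg on the left is a bound.

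Of the 38 genes, 17 had several probe sets. Their directions were the same for 9 of the 17 on the high fat diet and for 4 of 17 with forskolin, where most signals were low. Counting a gene only where every probe set passed 2-fold the same way left Ptprb, Nos3, Sox17 and Erg lower on the high fat diet, 0 genes higher, and with forskolin Vegfa higher and Erg lower. This count was added after the data were seen, and of its 4 diet genes only Sox17 had more than 1 probe set. It is given without the share of all genes under the same rule, so it is a list of genes and not an excess over the background.

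**Figure D4:**
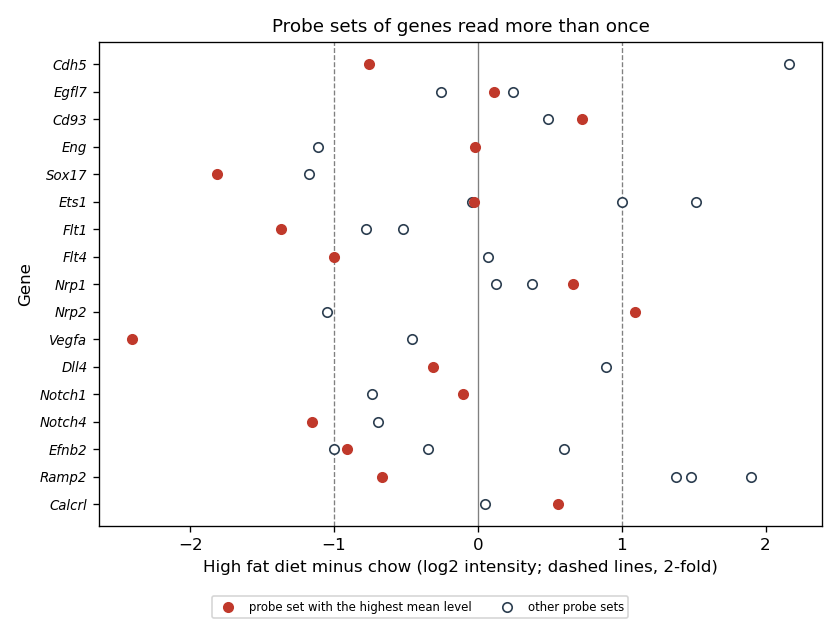
High fat diet minus chow (log2 intensity) for each probe set of the 17 genes read by several, filled for the probe set with the highest mean level and open for the others. Sox17, Flt1, Vegfa and Notch4 lie left of 0 with every probe set, Nrp1 and Cd93 right of it, and Cdh5, Nrp2 and Ramp2 on both sides.

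Of 50 other genes listed for the same pathways, 47 were measured in the cultures. By 2-fold or more 1 was higher, 2.13% against 1.94% of all genes, and 1 lower, 2.13% against 1.08%, shares that rest on 1 gene each. The first was Klf4, a shear- and cAMP-responsive transcription factor, with 5287 with forskolin and 1315 with vehicle (4.02-fold higher). Egln3, an oxygen-sensing hydroxylase, had 539 with forskolin and 1135 with vehicle, 2.10-fold lower by the brightest probe set and higher by the other 2.

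In fat 45 of the 50 were measured, with 5 at least 2-fold higher (11.1%, against 12.1% of all genes), 4 at least 2-fold lower (8.89%, against 7.42%) and a median difference of -0.04, so both shares were near those of all genes. Among those reaching the level filter, the leukocyte adhesion molecules Icam1 (1332 on the high fat diet, 258 on chow, 5.15-fold) and Vcam1 (2524 and 705, 3.58-fold) were higher. Acvrl1, the endothelial BMP receptor ALK1, was 4.08-fold higher (982 and 241), and Aplnr, the apelin receptor, 2.29-fold higher (505 and 221). In the cultures Acvrl1 had 713 with forskolin and 769 with vehicle, above its chow value, and Aplnr had 46.1 and 43.1. Lower genes included Ephb2 (168 and 546, 3.25-fold by the brightest probe set, lower by 2 of 3), Egln3 (710.3 and 2053, 2.89-fold) and the chemokine Cxcl12 (1123 and 2521, 2.25-fold, by 1 of 2 probe sets).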

How the data were processed

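RNA from 4 samples, 1 array per group, was biotin-labelled and run on arrays with the manufacturer's (Affymetrix) protocols, per the labels. The intensity values, 1 per probe set on a linear scale, are as deposited by the authors, and the software, background correction and normalization behind them were not given in the sources used here. A deposited table repeats them, equal in 90504 of 90504 cells, and holds signed fold changes and their bounds, which the file headers name. Array medians were 237 (forskolin), 236 (vehicle), 314 (high fat) and 266 (chow). Empty cells (74 to 271 per array) were left out, the 10th percentile of each array was its floor, and log2 was taken. Probe sets were named by gene ID (20834) or the table's symbol (541); 482 naming several genes and 769 naming none were not used. Among probe sets of a gene, that with the most values and then the highest mean log2 level was used. Of the 38, 3 rest on one ending in _s_at or _x_at, which can read other transcripts. The steps were tested on simulated arrays. All measured members are named; other pathway genes were named if 2-fold apart and at the level filter, except 1 that is not reported here. Members and lists were chosen with earlier results of these data known. Alternatives were other fold thresholds, a level filter, centring, quantile normalization, 16 added before log2, other probe set rules and the authors' folds. Analyses used Python 3.11.15, pandas 2.3.3 and numpy 2.4.6.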

Additional observations from a re-analysis of the deposited data

How the results depend on the processing

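With 1 array per group, leaving out a replicate was impossible, and no paired analysis was possible because no group has replicates. Counts of genes 2-fold apart stayed within 1.5 times as deposited except in the following. A 1.5-fold threshold gave 2 higher and 3 lower with forskolin and 3 higher and 18 lower on the high fat diet; a 3-fold threshold gave 0 higher and 2 lower on the high fat diet and 0 higher in vehicle cultures against chow fat. The level filter left 0 genes lower with forskolin. On the high fat diet, centring gave 0 higher and 13 lower, quantile normalization 0 and 16, the median over probe sets 5 lower, and requiring every probe set 0 higher and 4 lower (0 higher also in vehicle cultures against chow fat). Among role medians, the level filter moved ligands to -1.46 on the high fat diet (2 genes) and, in vehicle cultures against chow fat, to 0.20 (3 genes), with transcription factors at -3.65 there. The median over probe sets moved the CGRP and adrenomedullin receptor to 0.86 on the high fat diet and -0.27 in vehicle cultures against chow fat, Notch and ephrin genes to -0.88 there, and the gap of Vegfa to the markers to -1.16 on the high fat diet and 2.94 in vehicle cultures against chow fat. It also turned Ramp2 to 1.05 in that last comparison. The level filter keeps fewer genes and the probe set rules read other probe sets. Centring shifts every difference of a comparison by the same amount. On the diet arrays that shift is downward, since the median gene was at 420 on the high fat and 363 on the chow array. For quantile normalization the cause was not tested. The other 180 checks of counts, medians and gaps stayed on the same side or within 1.5-fold.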

Other observations

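Lymphatic endothelium was read by 3 listed markers. Lyve1, a hyaluronan receptor of lymphatic vessels and of some tissue macrophages, had 299.9 on the high fat diet, against 1022 on chow, 3.41-fold lower by the brighter probe set and lower by both, while the macrophage markers Adgre1 and Cd68 were 6.64-fold and 10.4-fold higher. Pdpn, podoplanin, had 1183 on the high fat diet, against 1014 on chow, and Prox1, the lymphatic transcription factor, was under the floor on all 4 arrays. Pdpn was brighter in the cultures, at 3308 with forskolin and 3372 with vehicle.

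Mural cells, which wrap vessels, were read by 7 listed smooth muscle and pericyte markers. Their summed intensity was 7900.1 on the high fat diet, against 8937 on chow, and 1 of 7, Myh11, was at least 2-fold lower by the brighter of 2 probe sets and higher by the other. Rgs5, a pericyte marker, had 370.4 on the high fat diet, against 692 on chow, 1.87-fold lower. Pdgfrb, the receptor by which endothelial PDGF recruits pericytes, had 1716 and 1804, and its ligand gene Pdgfb had 1006 and 596, 1.69-fold higher.

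Oxygen sensing genes differed in direction in fat. Hif1a encodes the hypoxia-inducible factor subunit that drives Vegfa. It had 2165 on the high fat diet, against 1246 on chow, 1.74-fold higher by the brightest probe set. Of its other 2 probe sets, 1 was also higher, and Epas1 was 1.34-fold higher. Its partner gene Arnt was 1.34-fold lower by 1 of 2 probe sets. Among the hydroxylases that mark the factor for removal, Egln3 was 2.89-fold lower by the brightest probe set and lower by all 3. Egln1 was 1.23-fold lower by the brighter probe set and lower by both, and Egln2 was 1.13-fold higher. Vhl, which removes it, was 1.91-fold higher below the level filter. Adm, adrenomedullin, whose receptor is Calcrl with Ramp2, had 562 on the high fat diet, against 522 on chow, and 3683 with forskolin and 4811 with vehicle.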
